A study of Mus musculus with 383 samples.

Results

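The genes described here are the nuclear-encoded genes of the mitochondrial respiratory chain and of ATP synthase, measured in single nuclei of vagal motor neurons. They were chosen by symbol alone: every row of the count table whose name begins with Ndufa, Ndufb, Ndufc, Ndufs or Ndufv followed by a number, or with Uqcr, Cox4 to Cox8, or Atp5, without pseudogenes. The rule gave 78 of the 29779 genes in the table, of which 36 belong by name to complex I, 8 to complex III, 18 to complex IV and 16 to complex V. The rule itself used no measured value, although the set was chosen with earlier results of these data known.

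The series profiled the dorsal motor nucleus of the vagus, the brainstem nucleus whose cholinergic neurons send motor fibres to the gut and other viscera, and its title names selective signalling from brain to gut through genetically defined neurons. The animals were male Chat-IRES-Cre mice on a C57BL/6 background, in which the choline acetyltransferase locus drives Cre recombinase. At 10 weeks of age they received 100 nL of the virus AAV9-DIO-H2b-mCherry in that nucleus, which labels the nuclei of Cre-positive cells with mCherry. Tissue was taken 16 days later, at 12 weeks of age, pooled, and sorted for mCherry at 1 nucleus per well, followed by Smart-seq2, a full-length cDNA method without molecular identifiers. The protocol speaks of sections around the SCN, while tissue and dissection are named as the vagal nucleus, and this was not resolved. There was 1 group, no untreated group, and no label naming an animal, so the series counts as 1 sample and nothing below was tested. Intervals (exact Clopper-Pearson for shares, exact Poisson for reads, both 95%) cover counting error only, and amplified reads are not independent molecules.

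Of 383 nuclei analysed here, 316 had at least 1000 genes with a read and were retained, with 1590 to 4699420 reads and a median of 1440075. Values between nuclei were compared at an equal depth of 500000 randomly drawn reads, which 295 nuclei reached and 21 did not. The markers of cholinergic neurons were mostly frequent: Chat was detected in 304 of 316 (96.2%, 93.5 to 98.0) and Tbx20, whose product regulates transcription in visceral motor neurons, in 88.9%. Other markers of these lists were less frequent, with Tbx3 in 56.3%, Isl1 in 29.7% and Phox2a in 22.8%. Median shares of the marker lists of glia, vascular and ependymal cells lay between 9.81% and 22.8%, and single markers such as Mbp of oligodendrocytes reached 76.9%.

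The respiratory chain passes electrons from NADH and succinate to oxygen and pumps protons across the inner mitochondrial membrane, and ATP synthase, also called complex V, uses that gradient to make ATP. Complex I (Nduf genes) takes electrons from NADH, complex III (Uqcr genes) passes them from ubiquinol to cytochrome c, and complex IV (Cox genes) hands them to oxygen. Most subunits are encoded in the nucleus, while some core subunits of these complexes are encoded in mitochondrial DNA, and neurons depend strongly on this pathway for ion pumping. Because RNA of sorted nuclei was sequenced, the values describe transcripts recovered with the nuclei, not the mRNA level of the whole cell or the protein. Mitochondrially encoded reads were present in most of these libraries, as given further on. The part of cytoplasmic mRNA carried along with the nuclei was not tested.

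The promoters of these genes were searched for short sequence motifs. NRF1 and YY1 are transcription factors with described roles in the control of mitochondrial genes, and their motifs were searched on both strands in windows from 250 bases before to 50 bases after the start of each gene, which RefSeq (GRCm38.p6) gave for 63 of the 78 genes. The exact NRF1 palindrome, spelled by the capitals in the first group of windows, was present in 5 of 63 (7.94%, 2.63 to 17.6), against 1.07% of all 27025 symbols with a window and 2.25% of 9963 other genes detected in these nuclei. The windows that hold it follow, because this motif and the YY1 core are the longest searched.
Cox6a1, chr5:115349101-115349130, minus strand: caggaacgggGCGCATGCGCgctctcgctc
Atp5k, chr5:108434430-108434459, minus strand: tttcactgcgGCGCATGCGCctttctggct
Atp5g2, chr15:102671070-102671099, minus strand: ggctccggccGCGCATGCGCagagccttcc
Ndufa11, chr17:56717692-56717721, plus strand: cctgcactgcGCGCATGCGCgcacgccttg
Uqcrc1, chr9:108936668-108936697, plus strand: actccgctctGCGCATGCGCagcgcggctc

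The first base of the motif lay 162 bases before the start in Cox6a1, 60 in Ndufa11, 50 in Atp5k and 42 in Atp5g2, and 31 bases after it in Uqcrc1. The YY1 core, spelled by the capitals in the second group of windows, was also present in 5 of 63 promoters (7.94%, 2.63 to 17.6), against 0.995% of all symbols and 2.29% of the other detected genes. Its first base lay 25 bases after the start in Ndufs7, 30 in Ndufa9, 34 in Ndufs6 and 36 in Ndufs4, and 88 bases before it in Atp5j. The windows show the core with a few bases on each side and do not reach the start.
Ndufs4, chr13:114388045-114388069, minus strand: tgcctacaggAAGATGGCGGcggtc
Ndufs6, chr13:73328433-73328459, minus strand: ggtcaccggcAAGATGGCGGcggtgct
Ndufs7, chr10:80249463-80249492, plus strand: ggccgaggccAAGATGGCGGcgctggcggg
Ndufa9, chr6:126849096-126849125, minus strand: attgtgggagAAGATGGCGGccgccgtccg
Atp5j, chr16:84835045-84835074, minus strand: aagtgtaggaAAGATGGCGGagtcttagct

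The 3 other motifs were more frequent in all sets. The ETS core CCGGAAG was found in 14 of 63 promoters (22.2%), against 19.2% of the other detected genes. The GC box GGGCGG was found in 24 (38.1%), against 66.8% of the other detected genes and 38.2% of all symbols. The TATA motif TATAAA was found in 7 (11.1%), against 8.85% of the other detected genes. A match describes letters in a window and not a bound site. None of the 5 motifs contains another, although neighbouring matches may overlap at their ends, and the 5 promoters with an NRF1 palindrome and the 5 with a YY1 core were different genes.

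Nearly the whole set was detected in these motor neurons. Every one of the 78 genes had at least 1 read in a retained nucleus. At 500000 reads, 72 of 78 genes were detected in at least 50% of nuclei, where 32.5% of all genes in the table were, and 34 of 78 in at least 90%, where 12.3% of all genes were. The median share was 88.0% for the chain genes and 17.6% over all genes of the table. The other 6 genes, all named as complex IV subunits, were each detected in under 15% of nuclei, so the plot of shares by complex separates into a high and a low group with no gene between 13.6% and 55.3%.

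**Figure D1:**
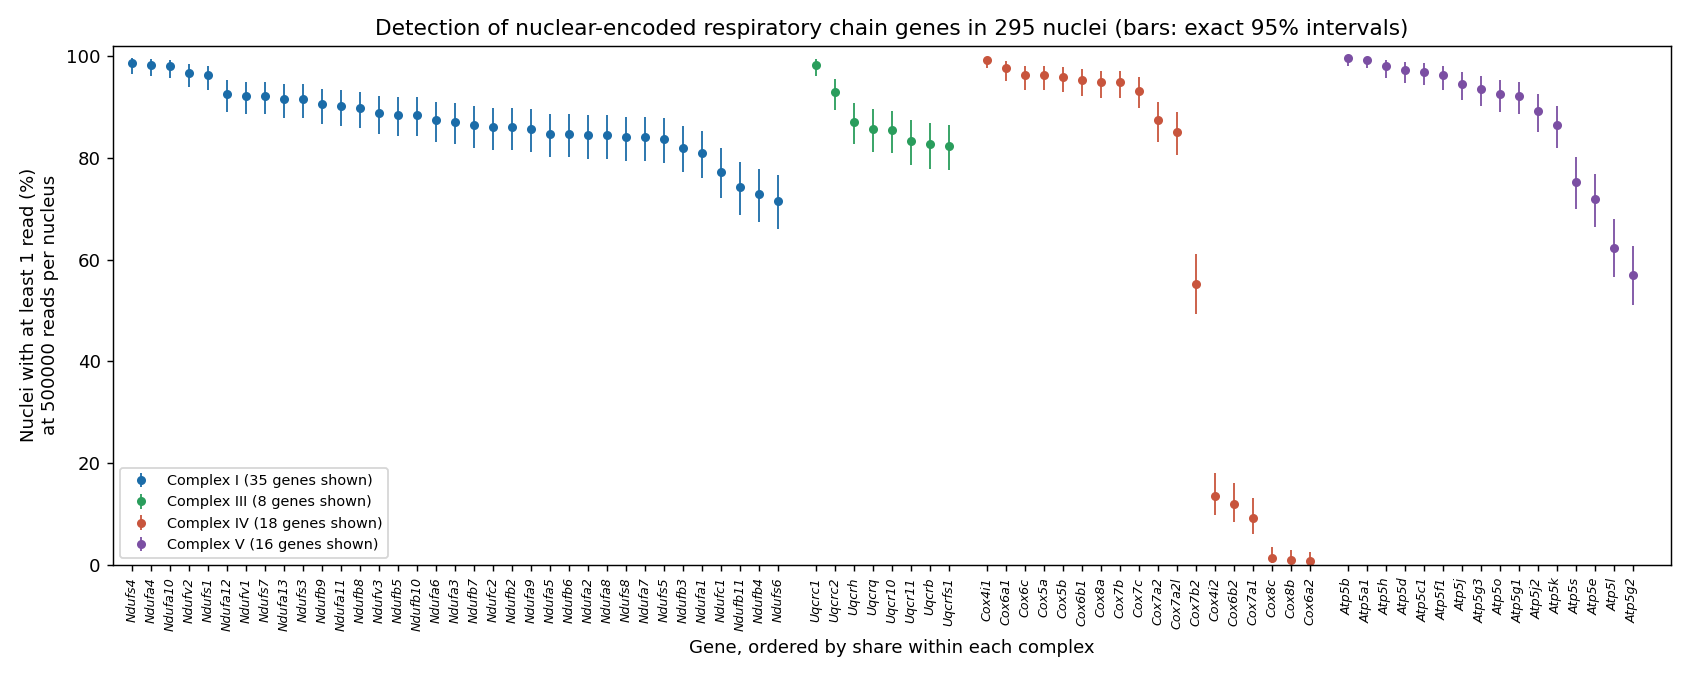
Share of 295 nuclei in which each of 77 of the 78 genes had a read at 500000 reads per nucleus (percent), by complex, 1 point per gene with exact 95% intervals. Complexes I, III and V lie between 56.9% and 99.7%, and 6 complex IV genes lie at 13.6% or below.

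Complex I was carried by all 36 of its genes, between 71.5% and 98.6% of nuclei. The highest share was that of Ndufs4, an accessory subunit of the NADH-oxidising arm, at 98.6% (96.6 to 99.6). Its thinned reads per nucleus ran from 0 to 228 with a median of 57. Ndufa4, named as a complex I subunit but known as a component of complex IV, followed with 98.3% and 0 to 218 reads (median 46), and Ndufa10, an accessory subunit, with 98.0% and 0 to 271 reads (median 59). At the other end stood Ndufs6, an accessory subunit that binds zinc, with 71.5% (66.0 to 76.6) and 0 to 68 reads (median 10). Ndufb4, an accessory subunit of the membrane arm, was detected in 72.9% (67.4 to 77.9) with 0 to 42 reads (median 2). The intervals of Ndufs6 and Ndufb4 overlap each other and lie below those of the 3 leading genes. Among the core subunits outside the membrane, Ndufv1, Ndufv2, Ndufs1, Ndufs3, Ndufs7 and Ndufs8 were detected in 84.1% to 96.6% of nuclei.

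Complex III had 8 genes between 82.4% and 98.3%. Uqcrc1, a core protein of the complex, had 0 to 371 thinned reads with a median of 71 and was detected in 98.3% of nuclei (96.1 to 99.4). Uqcrc2, its partner core protein, was detected in 92.9%, and the hinge protein gene Uqcrh in 87.1%. Uqcrfs1, which encodes the Rieske iron-sulphur protein, had the lowest share at 82.4% (77.5 to 86.5), although its median of 26 reads (0 to 139) was above the 14 of Uqcrh (0 to 95). Uqcrb, the ubiquinol-binding subunit, was detected in 82.7% with 0 to 56 reads (median 12). All neighbours in this order below Uqcrc2 had overlapping intervals.

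Complex V reached the highest single share. Atp5b, the catalytic beta subunit, had 0 to 679 thinned reads per nucleus with a median of 144, and was detected in 99.7% of nuclei (98.1 to 100.0). Atp5a1, the alpha subunit beside it in the catalytic head, had 0 to 578 reads (median 96) and a share of 99.3%, and Atp5h, of the peripheral stalk, had 0 to 155 (median 34) and 98.0%. Atp5l, subunit g of the membrane part, was lower at 62.4% (56.6 to 67.9), with 0 to 59 reads (median 3). Subunit c, which forms the rotating ring, is encoded by 3 genes with the same mature protein. Among them Atp5g3 was detected in 93.6% of nuclei (0 to 127 reads, median 31), Atp5g1 in 92.2% (0 to 76, median 16), and Atp5g2 in 56.9% (51.1 to 62.7; 0 to 57 reads, median 1). Atp5g2 shares 38.3% of its 50-base stretches with other annotated genes, so its share depends on how reads with several matches were counted, which is not given in the sources used here. Atp5s, known as coupling factor B and not as a structural subunit, was detected in 75.3%.

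Complex IV separated by isoform. Cox4i1, the common form of subunit 4, was detected in 99.3% of nuclei (97.6 to 99.9), with 0 to 298 reads and a median of 74, whereas Cox4i2, a form known from lung, was detected in 13.6% (9.87 to 18.0), with 0 to 34 reads and a median of 0. Cox6a1 was detected in 97.6% (0 to 180 reads, median 34) and Cox6a2, the form of heart and skeletal muscle, in 0.678% (0.0822 to 2.43). Cox6b1 was detected in 95.3% (median 29 reads) and Cox6b2, the form of testis, in 11.9% (8.40 to 16.1). Cox8a was detected in 94.9% (median 24 reads), Cox8b of muscle in 1.02% (0.210 to 2.94) and Cox8c of testis in 1.36% (0.371 to 3.44). For subunit 7a, Cox7a2 was detected in 87.5%, Cox7a2l, a factor of supercomplexes rather than a plain subunit, in 85.1%, and Cox7a1 of muscle in 9.15% (6.12 to 13.0). In each of these sets the interval of the common form lay above that of the tissue-specific form. Cox5a, detected in 96.3% with 0 to 148 reads (median 43), has no second form in mammals. Cox7b2, a form of subunit 7b described in testis, differed from the other tissue-specific forms: it was detected in 55.3% of nuclei (49.4 to 61.0), with 0 to 105 reads and a median of 2, and Cox7b in 94.9%.

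Levels between genes were compared per length, as summed RPM (reads scaled to a library size of 1e6) over all retained nuclei divided by the kilobases of annotated exon. On this scale Cox6a1 was highest at 97.4 RPM per kb, followed by Cox4i1 at 94.8, Cox8a at 90.5, Cox6b1 at 87.9 and Atp5b at 74.8, so that 4 of these 5 genes were complex IV subunits. Among the 72 genes detected in over 25% of nuclei the lowest were Atp5l at 2.82, Ndufb2 at 4.65 and Ndufb4 at 4.84. Exon length here joins all annotated transcripts, which makes the model of Atp5l 6.44 kb long and that of Ndufb2 5.63 kb, and lowers their values. Division by exon length fits only if reads in exons alone were counted, and the counting mode is not given in the sources used here. Across genes, RPM also rose with gene span, with a Spearman's correlation of 0.321 over the 72 chain genes and 0.378 over 12916 others. The part of reads from introns was not tested. Among these 72 genes the median was 44.1 RPM per kb for complex IV, 33.0 for complex III, 30.1 for complex V and 28.1 for complex I, with ranges that overlapped among the 4 complexes. Over all 18 genes of complex IV, the 6 rare isoforms included, its median was 23.0, the lowest of the 4.

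Summed over the 78 genes, the chain took 0.111% to 1.40% of the reads of a nucleus, with a median of 0.383% and quartiles of 0.272% and 0.560%. The highest nucleus thus stood 12.6-fold above the lowest. A nucleus had reads from 31 to 74 of the genes, with a median of 66. Complex I contributed a median of 0.157% of reads, complex V 0.123%, complex IV 0.0692% and complex III 0.0398%. The summed levels of the complexes followed each other over nuclei, with Spearman's rho between 0.819 for complexes III and IV and 0.920 for complexes I and V (n = 295).

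The genes also moved together one by one. For each gene, rho was computed over the 295 nuclei between its thinned reads and the sum of the other chain genes, and 67 of 78 genes reached at least 0.3, where 15.9% of 13224 genes detected in at least 25% of nuclei reached it against the summed chain. Counted among the 72 chain genes past that same detection limit it was 67 of 72. Their median rho was 0.617, against 0.0240 for the 13152 other genes, and 0.593 against 0.00698 when the number of genes detected and the total reads of the nucleus were held constant. These are descriptions over nuclei of 1 pooled preparation, thinned to equal depth, which differed in total reads and in mitochondrially encoded reads, as given further on.

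Atp5b had the highest rho with the other chain genes (0.841), followed by Cox4i1 (0.823), Atp5a1 (0.784), Cox5a (0.766) and Cox6a1 (0.761). Atp5b lies on chromosome 10 (128083273 to 128090391, plus strand, GRCm38) and Cox4i1 on chromosome 8 (120668222 to 120674207, plus strand), and the exons of Cox4i1 overlap Emc8 on the other strand, so that without strand some of its reads cannot be told apart from that gene. Within the 4 consecutive blocks of 96 nucleus numbers, which may match plates although the labels do not say so, rho of Atp5b was 0.801, 0.808, 0.877 and 0.815. That of Cox4i1 was 0.802, 0.828, 0.849 and 0.771, so both stayed high in every block.

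Between single genes the median rho was 0.355 over the 2556 pairs of the 72 genes, against 0.0123 over all pairs of detected genes, and 1615 pairs (63.2%) reached 0.3. The highest pair was Cox4i1 with Cox6a1 (0.736), both of complex IV. Next came the catalytic pair Atp5a1 with Atp5b (0.719), Cox4i1 with Ndufa13 of complex I (0.717), Atp5b with Cox5a (0.687), and Cox6a1 with Ndufa13 (0.677). Thus 3 of these 5 pairs joined genes of different complexes. Values within and between complexes lay close together: the median was 0.337 within complex I and 0.357 between its genes and those of other complexes, 0.349 and 0.353 for complex III, 0.393 and 0.367 for complex IV, and 0.391 and 0.369 for complex V.

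**Figure D2:**
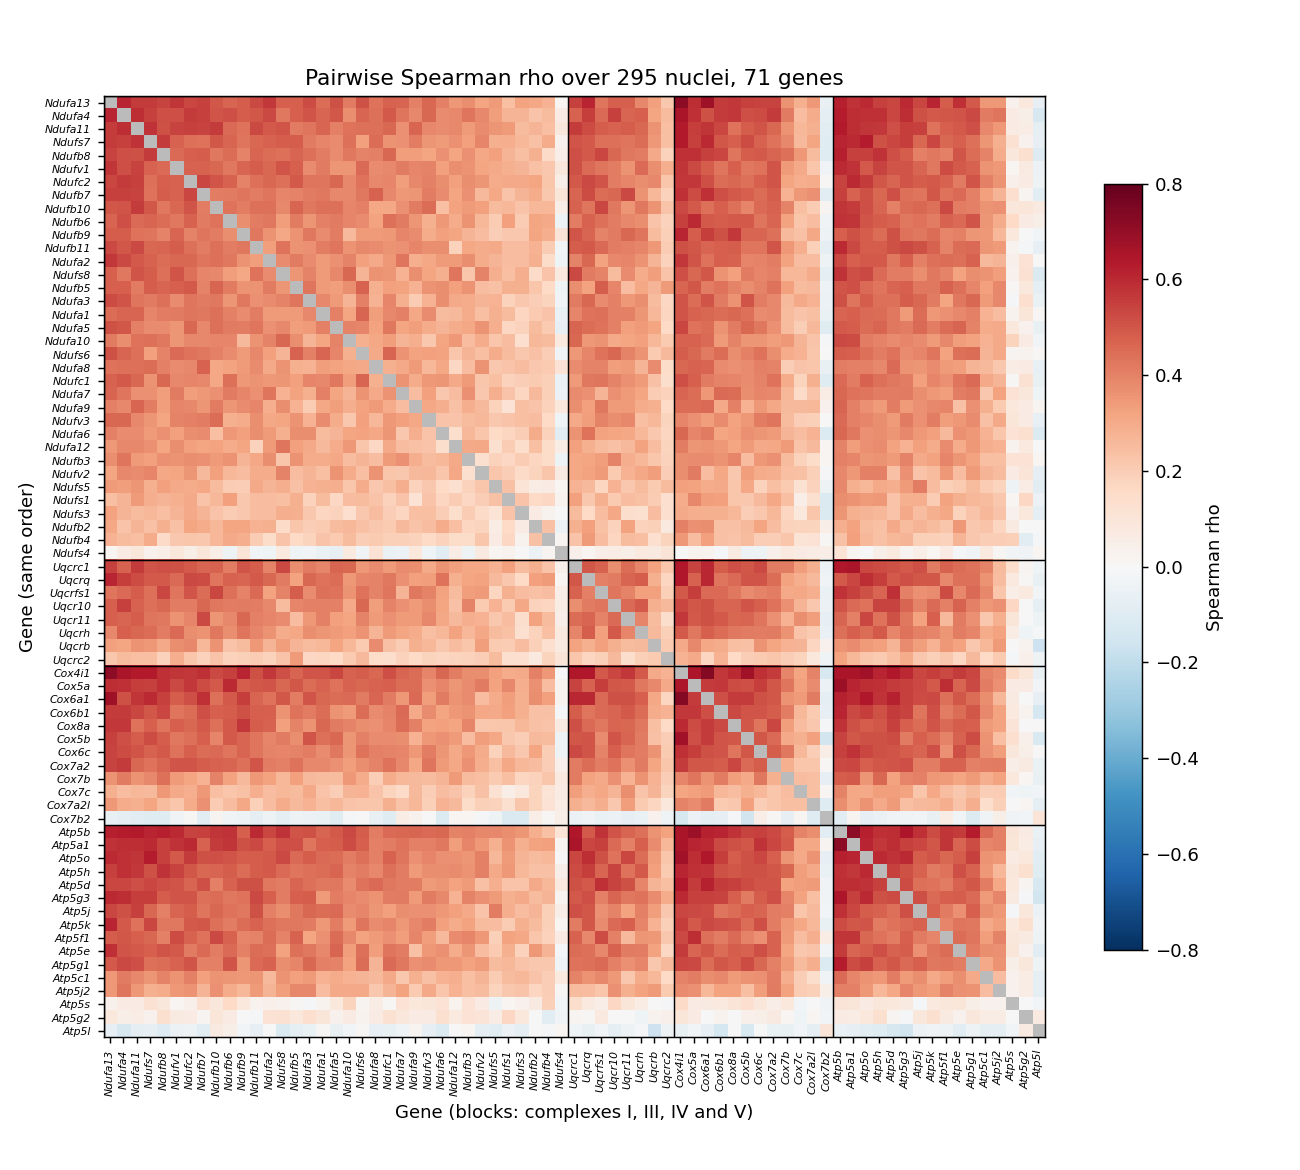
Spearman's rho over 295 nuclei for each pair of 71 of the 72 genes detected in at least 25% of nuclei, ordered by complex along both axes, with colour from blue (negative) over white to red (positive). Values are spread alike within and between complexes, and the pale lines belong to genes such as Atp5l, Cox7b2 and Ndufs4 with rho near 0.

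The 5 genes detected in over 25% of nuclei that fell below a rho of 0.3 were Atp5l (-0.0944), Cox7b2 (-0.0751), Ndufs4 (0.0624), Atp5g2 (0.0899) and Atp5s (0.124). Over all 78 genes the lowest values were those of Atp5l and Cox7b2 and then the rare isoforms Cox4i2 (-0.0614), Cox8c (-0.0474) and Cox6b2 (-0.0236), which had a median of 0 thinned reads. Ndufs4 was not a rare gene: it had the highest share of complex I and a median of 57 reads. In the 4 blocks its rho was 0.0458, -0.0473, 0.0180 and 0.158, and that of Atp5l -0.140, -0.208, 0.116 and -0.0827, so neither reached 0.3 in any block. The pair of Atp5l and Uqcrb had the lowest rho of all 2556 (-0.163).

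These 5 genes differ in their gene models. Ndufs4 spans 100 kb (chromosome 13, 114287795 to 114388258, minus strand, GRCm38) and Cox7b2 105 kb (chromosome 5, 71442824 to 71548205, minus strand), the only chain genes over 100 kb among the 72, where the median span of all 78 was 7.20 kb. Atp5s spans 19.7 kb on chromosome 12. Atp5l (chromosome 9, 44912557 to 44920742, minus strand) and Atp5g2 (chromosome 15, 102662864 to 102672352, minus strand) are short at 8.19 and 9.49 kb. Atp5l shares 7.63% of its 50-base stretches with 284 other genes, and Atp5g2 38.3% with 3. The part of read assignment in their low rho was not tested.

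Span was related to co-variation across the whole table, not only in the chain. Across genes, rho with the summed chain fell with gene span: Spearman's correlation between them was -0.383 over the 72 chain genes and -0.628 over 12916 other genes, where genes are not independent replicates. Under 5 kb the median rho was 0.635 for 23 chain genes and 0.297 for 991 other genes. It was 0.631 for 27 chain genes and 0.205 for others at 5 to 10 kb, and 0.501 for 18 and 0.114 at 10 to 30 kb. At 30 to 100 kb the 2 chain genes had 0.378 and 0.565 and the others a median of -0.0148, and over 100 kb the values were -0.0751 and 0.0624 for the 2 chain genes and a median of -0.123 for the others. In every bin the median of the chain genes lay above that of other genes of like span, with 2 chain genes each in the last 2 bins. Level was not matched in these bins. The median of mean thinned reads was 16.9 for chain genes and 7.16 for others under 5 kb, and 23.8 and 8.73 at 5 to 10 kb. It was 26.9 and 11.8 at 10 to 30 kb, 53.8 and 18.3 at 30 to 100 kb, and 36.9 and 39.3 over 100 kb. Across genes, rho and RPM had a correlation of 0.499 in the chain and 0.00119 in the others, and the part of level was not tested. Single chain genes did not all do so: at 5 to 10 kb, Atp5l and Atp5g2 lay below the median of the others.

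**Figure D3:**
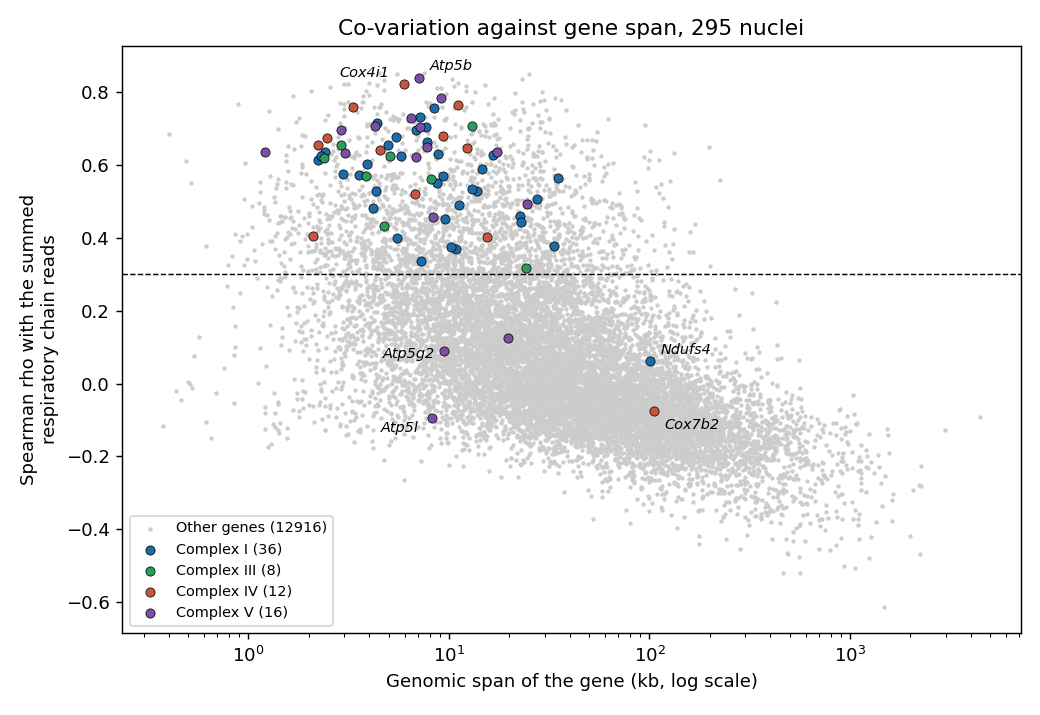
Spearman's rho of each gene with the summed chain genes over 295 nuclei (vertical) against gene span in kb (horizontal, log axis), for other detected genes and the 72 chain genes. The correlation falls with span in both sets, from a median of 0.635 for chain genes under 5 kb to values near 0 for Ndufs4 and Cox7b2 over 100 kb.

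The other genes most like the chain were not a mitochondrial set. By rho with the summed chain they included Slc25a4, the ADP/ATP carrier of the inner membrane (0.854), Bsg, the membrane glycoprotein basigin that accompanies lactate transporters (0.853), the chaperone Hsp90ab1 (0.852) and the lysosomal precursor Psap (0.852). Then came the glycolytic genes Pkm (0.837) and Gapdh (0.834), Uchl1, a neuronal ubiquitin hydrolase (0.827), Rab3a of synaptic vesicles (0.826) and the brain creatine kinase Ckb (0.823). Genes at the opposite end included Magi2 (-0.613), Fam155a (-0.521), Xkr4 (-0.520) and Sntg1 (-0.500), each detected in over 99% of nuclei at 1261 to 5048 RPM. Their spans ran from 466 kb for Xkr4 to 1478 kb for Magi2.

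Among lists of related pathways, the summed reads of glycolysis genes had the highest rho with the summed chain, at 0.908, with 14 of 15 genes in the table at 0.3 or above. The TCA cycle had 0.833 (13 of 16 genes), led by Mdh2, a malate dehydrogenase, at 0.752. Mitochondrial ribosomal proteins had 0.828 (37 of the 77 detected in over 25% of nuclei), the proteasome 0.826 (28 of 37) and cytosolic ribosomal proteins 0.789 (70 of 90). The ribosomal list was matched by symbol and holds 10 kinase genes that only share the name, and without them its rho was 0.828. Glycolysis and the proteasome act outside mitochondria, so high values were not limited to mitochondrial lists.

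Complex II, which feeds electrons from succinate and stands outside the symbol rule, had a rho of 0.719 for its sum and all 4 genes past 0.3. Its flavoprotein gene Sdha was detected in 97.6% of nuclei with a rho of 0.547, the iron-sulphur gene Sdhb in 96.9% with 0.647, and the membrane anchors Sdhc in 87.1% with 0.447 and Sdhd in 75.3% with 0.489. Cyc1, which encodes cytochrome c1 of complex III, was detected in 91.2% with a rho of 0.623, and Cycs, the electron carrier cytochrome c, in 82.0% with 0.523. The chain genes outside the rule thus lay in the range of those inside it.

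Assembly factors, which build the complexes without staying in them, followed less closely: 9 of 40 reached 0.3, their median rho was 0.144 and the rho of their sum was 0.525. None of the 12 listed regulators reached 0.3, and the rho of their sum was -0.253. Nrf1, which encodes the factor that binds the palindrome shown above, was detected in 93.6% of nuclei with a rho of -0.207. The coactivator gene Ppargc1a was detected in 67.5% with -0.0452, Gabpa, an ETS factor, in 50.2% with 0.0818, Esrra, an orphan nuclear receptor, in 68.5% with 0.0309, and Tfam, the mitochondrial transcription factor, in 52.2% with 0.185. Gabpa and Tfam had a median of 1 thinned read, which limits what a correlation can show. Nrf1 and Ppargc1a span 105 and 113 kb, and other genes over 100 kb had a median rho of -0.123. Gabpa, Esrra and Tfam span 28.9, 10.8 and 12.8 kb, and other genes of 10 to 30 kb had a median of 0.114. The part of span in the values of the regulators was not tested.

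Subunits encoded in mitochondrial DNA were present too, although nuclei were sorted. Summed over 12 such genes in the table they took 0 to 0.538% of the thinned reads, with a median of 0.0852%, and had a rho of 0.636 with the nuclear-encoded sum. Within the 4 blocks that rho was 0.615, 0.729, 0.618 and 0.647. Of the 12, 7 were detected in 86.4% to 93.9% of nuclei, among them mt-Co1 (93.9%, rho 0.612) and mt-Nd1 (91.2%, rho 0.606). The others had few reads: mt-Nd3 in 12.2%, mt-Co3 in 4.07%, mt-Atp6 in 1.69%, mt-Co2 in 1.02% and mt-Atp8 in 0.678%. These 5 were far below the other 7, and how reads with several matches were counted is not given in the sources used here.

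**Figure D4:**
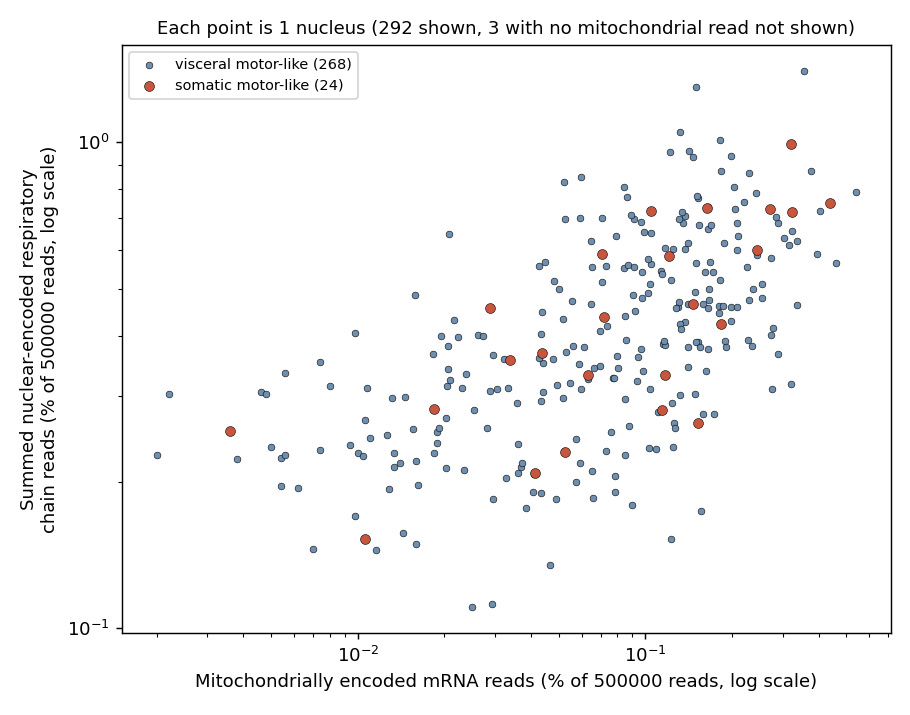
Summed reads of the 78 nuclear-encoded genes against summed mitochondrially encoded reads, each as a percent of thinned reads on log axes, for 292 nuclei (268 visceral and 24 somatic motor-like), leaving out 3 nuclei with no mitochondrially encoded read. The sums rise together, with a rho of 0.636 over all 295 nuclei, and the classes overlap.

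Other measures moved with the summed chain as well. Its rho was 0.684 with the summed cholinergic markers, 0.438 with general neuronal markers, 0.208 with the number of genes detected at equal depth, and -0.310 with the total reads before thinning. It was 0.0895 with oligodendrocyte markers, -0.0274 with astrocyte, -0.000493 with microglial and -0.268 with vascular markers. The median sum was 0.353%, 0.520%, 0.328% and 0.390% in the 4 blocks of nucleus numbers, so the second block was highest, with ranges that overlapped in all. In these blocks 67, 65, 63 and 63 of the 78 genes reached a rho of 0.3. With the number of genes detected and the total reads held constant the median rho of the chain genes was 0.593, as given above, and the part of the marker lists and blocks in the co-variation was not tested.

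Expressed chain genes varied less from nucleus to nucleus than most genes. The coefficient of variation of thinned reads, the SD divided by the mean over 295 nuclei, had a median of 0.865 for the 72 genes and 1.28 for all 13224 genes past the same detection limit. It was lowest for Cox4i1 (0.619) and highest for Atp5g2 (1.74). The median of mean thinned reads was 21.2 for the chain genes and 14.3 for all, and this difference in level enters the coefficient.

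Visceral and somatic motor neurons were then compared. Clustering without the chain genes and related lists separated 24 nuclei with somatic motor markers from 292 visceral motor-like nuclei, and all 24 and 271 of these reached 500000 reads. The summed chain ran from 0.153% to 0.993% (median 0.430%) in somatic and from 0.111% to 1.40% (median 0.381%) in visceral motor-like nuclei, so the groups overlapped over nearly their whole range. A difference was called at 20 percentage points or more with intervals that did not overlap. By this rule 0 of 72 chain genes passed in either direction. Most chain genes had visceral shares too high to lie 20 points higher in somatic nuclei. A higher call was impossible for these genes, so its absence shows nothing about them, while a lower call was possible. Of all 14251 genes tested, 2.74% were called higher and 4.29% lower in somatic motor-like nuclei. Detection share was not matched between these genes and the chain genes. Shares were higher in somatic nuclei for 41 chain genes and lower for 31, with a median difference of 0.915 points. With 24 somatic nuclei, smaller differences were not detectable.

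The largest difference in share was that of Cox7b2, detected in 75.0% of somatic (53.3 to 90.2) and 53.5% of visceral motor-like nuclei (47.4 to 59.6), 21.5 points apart with overlapping intervals. This difference depended on the block of nucleus numbers, at 42.3, 4.97, 51.6 and -5.22 points in the 4 blocks, each with 5 to 7 somatic motor-like nuclei. Ndufb6, an accessory subunit of complex I, differed the other way, with 66.7% (44.7 to 84.4) and 86.3% (81.7 to 90.2). In summed thinned reads, Atp5l was the only one of the 72 genes that was 2-fold apart. It had 34.8 RPM in somatic (31.6 to 38.3) and 16.6 in visceral nuclei (15.9 to 17.3), and its median reads were 14.5 and 2. Among the rare isoforms outside the 72, Cox6b2 had 0.417 RPM in somatic (0.135 to 0.972) and 1.48 in visceral nuclei (1.28 to 1.70). Its somatic reads all came from 1 of 24 nuclei. Its shares of 4.17% (0.105 to 21.1) and 12.5% (8.85 to 17.1) had overlapping intervals, so no class difference can be read from it. Cox4i2 differed the other way, with 1.67 and 1.21 RPM, and the remaining rare isoforms were lower in somatic nuclei.

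Among visceral motor-like nuclei the chain differed between clusters. The 11 clusters were built without chain, mitochondrial, ribosomal or other listed pathway genes. The median sum was 0.675% in cluster 1 (lowest 0.473, highest 1.01, n = 37) and 0.619% in cluster 5 (0.376 to 0.932, n = 25). It was 0.211% in cluster 9 (0.184 to 0.312, n = 18), 0.224% in cluster 10 (0.111 to 0.323, n = 16) and 0.236% in cluster 11 (0.149 to 0.307, n = 12), and between 0.316% and 0.402% in the other 6. No nucleus of clusters 9, 10 or 11 was as high as the lowest nucleus of clusters 1 and 5. Library size and vascular markers moved with this split: median reads before thinning were 1227318 and 1265195 in clusters 1 and 5 and 1595354 to 1909266 in clusters 9 to 11, and the mean share over vascular markers was 12.4% and 19.2% against 23.3% to 35.0%. Their part in the difference was not tested.

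**Figure D5:**
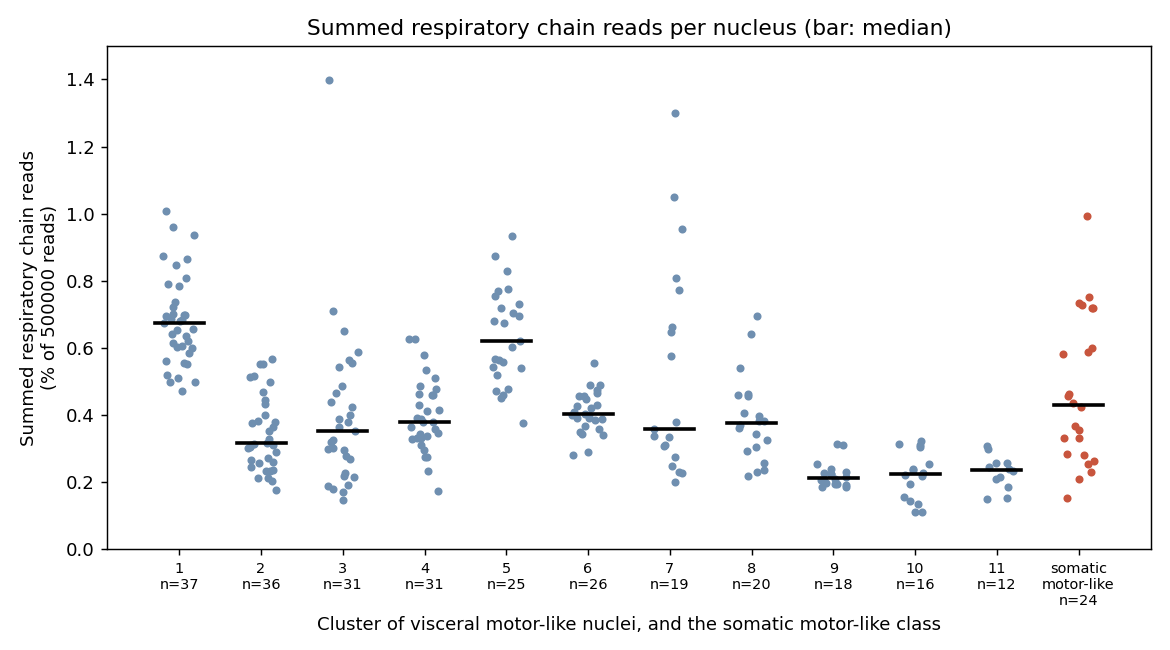
Summed reads of the 78 genes as a percent of thinned reads in each visceral motor-like nucleus, by cluster, with the somatic motor-like class at the right, 1 point per nucleus and a line at the median. Clusters 1 and 5 have medians of 0.675% and 0.619%, and clusters 9, 10 and 11 medians of 0.211% to 0.236%.

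The same clusters differed in other lists. The median of mitochondrially encoded reads was 0.169% in cluster 1 and 0.152% in cluster 5, and 0.0195%, 0.0174% and 0.0292% in clusters 9, 10 and 11. Glycolysis genes took a median of 0.363% and 0.355% in clusters 1 and 5 and 0.128% to 0.150% in the low clusters, and the proteasome 0.370% and 0.400% against 0.138% to 0.181%. Clusters 1 and 5 shared 26 of their 50 leading genes, cluster 9 shared 28 with cluster 6, and cluster 11 shared 29 with cluster 2. Of 1167 genes that built the clusters and had a rho, 149 (12.8%) reached 0.3 with the summed chain. Over all 13224 detected genes it was 15.9%, so the genes that built the clusters were not richer in such genes. The clusters were still built in part on genes that followed the chain, and were not independent of it. The leading genes of cluster 1 included Psap and Rab3a, with a rho of 0.852 and 0.826. Cluster 9 held no nucleus of the second block and cluster 1 held 16 of its 37 from it, and the part of the blocks in these differences was not tested.

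By share, 24 of 72 chain genes differed by at least 40 points between the highest and lowest cluster with intervals apart, where 29.8% of 12073 genes did, so the count was near the background. Ndufb11, an accessory subunit encoded on the X chromosome, had a share of 100% in cluster 1 (90.5 to 100) and 8.33% in cluster 11 (upper limit 38.5). Atp5e, the epsilon subunit of the central stalk, had 100% and 16.7% there. For Uqcrfs1 the shares were 100% in cluster 1 and 31.2% in cluster 10, for Ndufc1 100% and 37.5% in the same clusters, and for Ndufb4 96.0% in cluster 5 and 31.2% in cluster 10. Ndufs6, Ndufc2, Cox7a2l, Ndufa1, Ndufb6, Ndufs5, Uqcr10, Uqcrq, Atp5k and Ndufa2 came next, with ranges of 59.8 to 43.8 points. In all 24 genes the highest share was in cluster 1 or 5 and the lowest in cluster 9, 10 or 11, alone or tied. These clusters were also the highest and lowest in the summed reads of the same genes, so this is not a separate result. The same count is not given for the background genes. The count was 3 when clusters were built at resolution 0.5, 15 with 20 neighbours, 3 with a filter of 2000 genes per nucleus and 44 when detection required 5 reads. Atp5b and Cox4i1, detected in nearly every nucleus, had a range of 6.25 points each.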

How the data were processed

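The authors deposited 1 table of read counts, not normalised, for 29779 gene symbols in 383 nuclei (the series text speaks of 384 samples). The submitters' processing notes list Seurat version 3, edgeR, Picard, STAR and bcl2fastq as tools, without roles, and GRCm38 as the genome; annotation, counting mode and use of strand are not given in the sources used here. The chain genes, the lists and the rules were chosen with earlier results of these data known.

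Nuclei with at least 1000 genes with a read were retained, detection meant at least 1 read, and each nucleus was thinned to 500000 reads with a fixed seed. Spearman's rho was computed over 295 nuclei, with genes detected in at least 25% of nuclei as background. Clusters were built with scanpy 1.11.5 and igraph 0.11.9 (scaling to 10000, 2000 variable genes, 15 components, 10 neighbours, Leiden resolution 1) without chain, mitochondrial, ribosomal or other listed genes; classes were named from marker lists, and only clusters of at least 8 nuclei were compared. No doublet caller was run, since 1 nucleus was sorted per well. Gene spans and exon lengths came from GENCODE M21, which matched 28340 symbols (95.2%) and all 78 chain genes, and promoter windows from RefSeq by symbol. Other tools were Python 3.11.15, numpy 2.4.6, pandas 2.3.3, scipy 1.17.1 and matplotlib 3.10.9. The calculation of shares, rho and calls was tested on simulated counts.

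Genes were named by rule: per complex the 3 highest and 2 lowest shares, the isoform sets of Cox4, Cox6a, Cox6b, Cox7a, Cox8 and Atp5g, the 5 highest and 5 lowest rho, the 5 highest pairs, the 10 most and 5 least similar other genes, up to 15 genes past a class or cluster limit, and listed regulators and partners. Other genes named were chosen after their values were seen. Some genes that the rule names are not reported here, and 1 chain gene is left out of the plots of shares and of pairs.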

Additional observations from a re-analysis of the deposited data

Results flagged for a closer look

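The 67 nuclei with fewer than 1000 genes with a read took no part in the comparisons and still held signal of the chain genes. At least 1 read of a chain gene was found in 46 of them (68.7%), above the limit that a count of 0 allows (3 nuclei, 4.48%). That limit is a low bar, and no level of other genes in these nuclei was set beside it. A nucleus had reads of 0 to 9 of the genes, with a median of 1, and Cox4i1 was seen most often, in 7 nuclei. These libraries had a median of 2328 reads. The genes took a median of 0.0661% of their reads and 15.6% in 1 library.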

How the results depend on the processing

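The count of chain genes detected in at least 50% of nuclei stayed between 67 and 72, the count with a rho of at least 0.3 between 63 and 67, and the median summed share of reads between 0.328% and 0.520% under the alternatives run, which changed the gene filter, depth, scaling, correlation, clustering and block of nucleus numbers. The count of chain genes past the cluster limit was 24 and became 3 with at least 2000 genes per nucleus, 44 with detection at 5 reads, 3 at resolution 0.5 and 15 with 20 neighbours. The rho with mitochondrially encoded reads was 0.636 and became 0.577 as Pearson's correlation of log2(count + 1) and 0.729 in the second block. The count past the class limit was 0 and became 2 in the third block. The causes were not tested. Of the 71 alternative values of these main results, 64 stayed within their limits. The limit was a fixed ratio to the main value for counts and the SD over nuclei for the summed share. For the rho with mitochondrially encoded reads it was the SD between blocks, which are themselves among the alternatives. Of these results only that rho could change sign, and it did not. The share of background genes with a rho of at least 0.3 ran from 7.22% to 20.4%. No paired analysis was possible because there is 1 group and the labels only number its nuclei. Depth limits the shares of genes with few reads: Atp5g2 was detected in 56.9% of nuclei at 500000 reads, in 48.3% at the shallower depth tried and in 65.1% at the deeper one.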
